A study of Mus musculus with 14 samples.

Results

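The genes encoded by mitochondrial DNA were examined in skeletal muscle RNA-seq libraries of mice that overexpress c-Myc in endothelial cells. Members were all genes that the deposited count table places on chromosome MT, 37 of its 54532 genes: 13 protein genes, 2 rRNA genes and 22 tRNA genes. All 13 protein genes, both rRNA genes and 14 tRNA genes passed the filter on low counts, so 29 of 37 members were among the 15458 genes tested.

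The study set endothelial c-Myc activity against diet, asking how endothelial c-Myc affects body weight, glucose handling and the tissues of mice on a control diet (CTD) or a high-fat western diet (WD). All libraries were from male FVB/N mice. EC-Myc OE mice (OE) carried a human c-Myc transgene behind a tetO promoter, located on the Y chromosome, and the tTA transactivator driven by the endothelial Cdh5 promoter. Taking the mice off doxycycline between 4 and 6 weeks of age switched the transgene on. The controls (CT) came from the same litters and had no tTA to drive their tetO transgene. There were 14 libraries in 4 groups: 3 of CT-CTD, 3 of CT-WD, 4 of OE-CTD and 4 of OE-WD. The labels do not state that libraries of a group come from separate animals. Column names of all 4 OE-WD libraries share a number, those of 3 of the 4 OE-CTD libraries share another, and its meaning is not given. If it marks a litter or an animal, SD and p of these groups measure only the spread between related samples. The labels say skeletal muscle without naming the muscle of each library. The published methods name soleus and gastrocnemius as the source of the RNA, without saying which library held which. The labels, like the published methods, give 20 weeks of diet, while the published account of the muscle RNA speaks of a shorter exposure. By the labels group size goes with genotype, and in the published account it goes with diet. An exchange of the names CT-WD and OE-CTD would fit the latter. It would turn diet comparisons into genotype comparisons and leave the interaction as it is, and it is not excluded here, where the labels are followed. Summed endothelial markers were at 393.5 to 410.4 CPM (depth-scaled counts with TMM factors) in CT-CTD and at 418.7 to 481.3 CPM in CT-WD. For OE-CTD they were at 448.5 to 507.5 CPM, and for OE-WD at 510.1 to 535.2 CPM.

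Mitochondrial DNA encodes core subunits of respiratory complexes I, III, IV and V, the rRNAs of the mitochondrial ribosome and a set of tRNAs, while complex II and the remaining subunits are encoded in the nucleus. Both strands are transcribed as long precursors that are cut, largely at the tRNAs, into separate RNAs. RNAs of a strand start from common promoters in the control region but differ in stability, and most protein and rRNA species carry short poly(A) tails.

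Summed counts per library lay between 21833839 in CT-WD 2 and 28519159 in OE-CTD 2. RNA had been captured on poly-T beads, and how much of the rRNA and tRNA pool this captured is not known. The most abundant marker of the tissue check was Myh4, the fast IIB myosin heavy chain, at a mean of 48980 CPM. Acta1, skeletal muscle actin, was at 42920 CPM. The most abundant slow and oxidative fibre marker, Myh2, was at 2844 CPM. Markers of other tissues were far lower, with Fabp4 of adipocytes at 216 CPM, Hba-a1 of red blood cells at 138 CPM, Lyz2 of macrophages at 28.1 CPM and Krt5 of epidermis at 10.1 CPM. Mean CPM of mouse Myc was 5.05 in CT-CTD, 8.99 in CT-WD, 5.60 in OE-CTD and 6.40 in OE-WD, and human MYC sequence was not looked for.

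The libraries OE-CTD 4 and OE-WD 4 stood apart from the other 12. Their TMM factors were 0.888 and 0.899, against 0.945 to 1.07 in the others. mt-Co1 alone took 6.28% of counts in OE-CTD 4 and 6.00% in OE-WD 4, against 3.87 to 4.84% elsewhere. Summed CPM of the 6 skeletal muscle markers was 91820 in OE-CTD 4 and 90640 in OE-WD 4, against 65240 to 82070 elsewhere. Summed CPM of the fast fibre markers was 150900 in OE-CTD 4 and 156600 in OE-WD 4, and 111500 to 150500 in the others. Slow and oxidative fibre markers were also highest there, with sums of 13740 and 12750 CPM against 8488 to 12520 CPM in the others. Most results for mitochondrial genes that involve OE groups are therefore given with and without both libraries, an alternative chosen after seeing the data.

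CT-WD 1 differed from the other CT-WD libraries in markers of tissues beside muscle fibres. Tendon and fibroblast markers summed to 1113 CPM in CT-WD 1, and to 314.9 and 315 CPM in CT-WD 2 and 3. Epidermis markers summed to 89.5 CPM in it, against 8.55 and 10.3 CPM. Macrophage markers summed to 93.8 CPM, against 45.0 and 38.9 CPM. CT-CTD 1 was likewise the highest CT-CTD library for these markers, with 520.8, 38.1 and 60.6 CPM in that order. Values without CT-WD 1 are given beside the results that it changed most.

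The mitochondrial share of counts was between 9.66 and 14.9% in every library. In CT-CTD the share was 11.96, 10.1 and 10.6%, with a mean of 10.9% ± 0.961 (SD, n = 3). The CT-WD libraries held 11.6, 10.3 and 9.66%, mean 10.5% ± 1.0 (SD, n = 3). In OE-CTD the share was 12.8, 11.4, 11.3 and 14.9%, mean 12.6% ± 1.7 (SD, n = 4). The OE-WD libraries held 12.1, 11.3, 10.9 and 14.5%, mean 12.2% ± 1.61 (SD, n = 4). The 95% Wilson interval of a single library reached 0.0116 to 0.0149 percentage points to each side and covers counting error only. Libraries of both groups overlapped in each of the 4 pairwise comparisons. The difference of means was -0.378 percentage points for CT-WD against CT-CTD (0.158 without CT-CTD 1, -0.928 without CT-WD 1) and -0.357 for OE-WD against OE-CTD (0.422 without OE-CTD 4, -1.12 without OE-WD 4, -0.345 without both libraries 4). For OE-WD against CT-WD it was 1.73 percentage points, and 0.961 without OE-CTD 4 and OE-WD 4. For OE-CTD against CT-CTD it was 1.71 percentage points, and 0.928 without them. Of summed FPKM, which divides by gene length, mitochondrial genes took 19.7 to 30.2%.

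**Figure D1:**
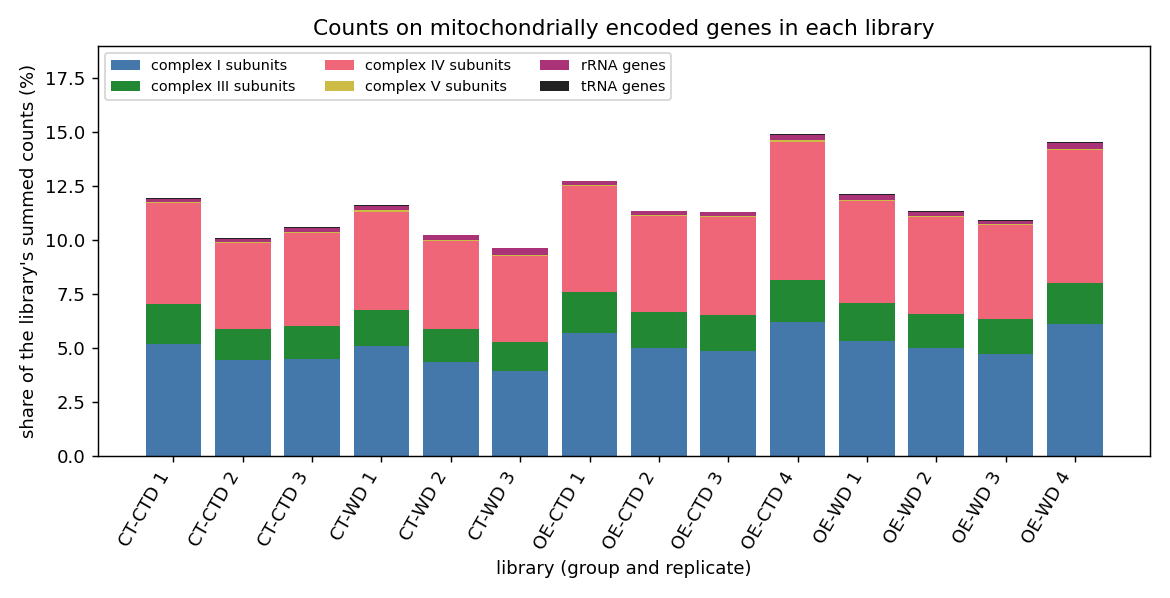
Share of each library's counts that fall on mitochondrial genes, in percent on the y axis. Each library has a stacked bar, split into complexes I, III, IV and V, rRNA genes and tRNA genes. OE-CTD 4 at 14.9% and OE-WD 4 at 14.5% lie above all other libraries, which reach from 9.66 to 12.8%.

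Protein genes of complex I took 43.2% of all mitochondrial counts, mt-Cytb of complex III 14.3%, complex IV 40.1% and complex V 0.554%. The rRNA genes took 1.66% and the tRNA genes 0.258%. Over the libraries complex I held 40.6 to 44.7%, complex III 13.1 to 15.5% and complex IV 38.5 to 42.8%. The smaller shares varied more, with 0.334 to 0.795% for complex V, 1.2 to 3.08% for rRNA genes and 0.208 to 0.316% for tRNA genes. Of the 20 genes with most counts in each library, 6 were mitochondrial. mt-Co1 had the most counts of all genes in the 4 OE-CTD libraries and in OE-WD 4, and Myh4 in the remaining libraries.

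Levels of different genes are compared on the deposited FPKM scale, which accounts for gene length. Complex IV held the gene with the highest median over the 14 libraries, mt-Co1, the catalytic subunit of cytochrome c oxidase, at 29740 FPKM. mt-Nd1 of complex I followed at 16800 and mt-Cytb, cytochrome b, at 15070, with overlapping libraries. Other complex I genes of the proton-pumping membrane arm were mt-Nd2 at 11800 FPKM, mt-Nd4 at 7657, mt-Nd6 at 6565 and mt-Nd5 at 5643. The lowest library among these 7 genes lay above the highest library of the remaining 6 protein genes. Those were mt-Atp6, the proton channel subunit of ATP synthase, at 920 FPKM, mt-Co2 at 675, mt-Co3 at 479, mt-Nd4l at 272, mt-Atp8 at 128 and mt-Nd3 at 19.6. The rRNA genes were at 716 FPKM for mt-Rnr1 (12S) and 770 for mt-Rnr2 (16S).

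**Figure D2:**
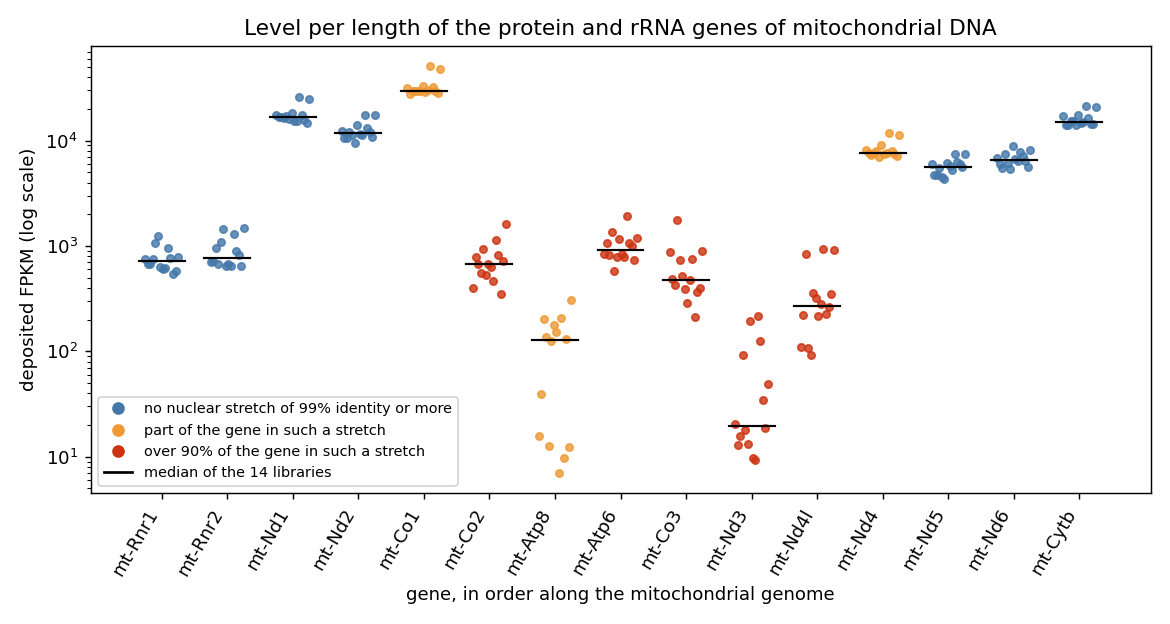
Deposited FPKM of the 13 mitochondrial protein genes and both rRNA genes on a log y axis, with a point for each of the 14 libraries. Medians reach from 19.6 for mt-Nd3 to 29740 for mt-Co1.

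Gene order and sequence differ within this small genome. Sequences are those of GENCODE M21 transcripts, with GRCm38 coordinates, read 5′ to 3′ on the gene's strand. mt-Nd6 and 8 tRNA genes lie on the minus strand. mt-Nd6, the sole protein gene there, has 28.1% G and 5.97% C, and the other protein genes have 5.88 to 16.1% G. mt-Atp8 and mt-Atp6, which are read from a single bicistronic RNA, overlap by 43 bases at chrMT:7927-7969 on the plus strand. Capitals mark the start codon of mt-Atp6 and the stop codon of mt-Atp8:

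mt-Atp8 and mt-Atp6 overlap: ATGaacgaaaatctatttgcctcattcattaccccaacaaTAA

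mt-Nd4l and mt-Nd4 overlap by 7 bases on the same strand, and mt-Nd5 and mt-Nd6 by 14 bases on opposite strands. In 3 protein genes the DNA ends in a lone T of the stop codon, which poly(A) addition completes, and the other 10 encode a whole stop codon. Capitals mark the T that ends mt-Cytb (chrMT:15259-15288), mt-Co3 (chrMT:9361-9390) and mt-Nd4 (chrMT:11515-11544), all on the plus strand:

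mt-Cytb end: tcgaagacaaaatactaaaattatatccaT

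mt-Co3 end: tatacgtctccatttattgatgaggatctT

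mt-Nd4 end: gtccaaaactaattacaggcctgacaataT

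A copy of mitochondrial DNA is inserted in the nuclear genome on chromosome 1. On GRCm38 it covers chr1:24611535-24616197 on the minus strand, where the count table lists 7 pseudogenes. Over 90% of the length of mt-Co3, mt-Atp6, mt-Co2, mt-Nd3 and mt-Nd4l lies in this copy at 99% identity or more. These 5 genes had median FPKM of 19.6 to 920 and a median coefficient of variation within groups of 52.5%. mt-Cytb, mt-Nd1, mt-Nd2, mt-Nd5 and mt-Nd6 have no such copy, and they had median FPKM of 5643 to 16800 and a median coefficient of variation of 14.9%. Over all genes tested the median was 12.8 to 15.9% in the 4 groups. By the transcripts aligned, mt-Nd4 (63.6% of its length), mt-Co1 (31.3%) and mt-Atp8 (21.1%) are covered in part, and their median coefficient of variation was 23.4%. Among these mt-Co1 and mt-Nd4 had high levels, while mt-Atp8 was low, at 128 FPKM, with coefficients of variation of 65.2 to 121% in the 4 groups. The rest of mt-Atp8 corresponds to the stretch between the pseudogenes Gm28661 and Gm10925, which was not aligned, so 21.1% is a lower limit. Whether coverage by the whole copy orders all 13 genes was therefore not tested. How reads that align to several places were counted is not given, and its part in these levels was not tested. The 7 pseudogenes together took 0.0573 to 0.112% of counts.

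A stretch of mt-Atp6 (chrMT:8240-8290, plus strand) is identical in the pseudogene Gm10925 (chr1:24614288-24614338, minus strand):

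mt-Atp6 and Gm10925: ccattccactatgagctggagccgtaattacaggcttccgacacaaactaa

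mt-Nd3 and its pseudogene Gm28438 differ by the substitution T3C, counted from 1 at the 5′ end of the gene. mt-Co1 and Gm29216 differ by A1066T, counted in the same way. Capitals mark the differing base, and the windows are chrMT:9459-9486 and chrMT:6390-6418 on the plus strand and chr1:24613092-24613119 and chr1:24616160-24616188 on the minus strand:

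mt-Nd3: atTaacctgtacactgttatcttcatta

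Gm28438: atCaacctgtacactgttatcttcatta

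mt-Co1: ggaAttgttttatccaactcatcccttga

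Gm29216: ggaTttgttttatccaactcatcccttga

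Whether diet, genotype or their combination changed these genes was tested in 4 pairwise comparisons and in the diet by genotype interaction, with edgeR's quasi-likelihood test and p adjusted over all genes tested. In CT-WD against CT-CTD 0 of 29 mitochondrial genes and 0 of 15458 genes (0%) passed at an adjusted p below 0.05. For OE-WD against OE-CTD it was 0 mitochondrial genes and 1 of all genes (0.00647%). In OE-WD against CT-WD 0 mitochondrial genes and 112 of all genes (0.725%) passed. In OE-CTD against CT-CTD 0 mitochondrial genes and 413 of all genes (2.67%) passed. For the interaction 0 mitochondrial genes and 0 of all genes (0%) passed. At an unadjusted p below 0.05 the mitochondrial genes numbered 1 (3.45%), 0, 5 (17.2%), 2 (6.9%) and 1 (3.45%) of 29 in that order, beside 7.28, 4.2, 16.9, 15.9 and 5.92% of all genes. DESeq2 called 1 mitochondrial gene, mt-Rnr1 in OE-WD against CT-WD, and limma on log2 FPKM called 0 in each comparison. With no filter on low counts edgeR called 3 of 36 mitochondrial genes in OE-WD against CT-WD (mt-Rnr1, mt-Co3, mt-Te) and 2 of 36 in OE-CTD against CT-CTD (mt-Nd3, mt-Ty). The share of all genes called under these alternatives is not given here, so their counts stand without a background. The comparisons share libraries, since each group enters 2 of them.

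The question of CT-WD against CT-CTD is what the western diet does in muscle without endothelial c-Myc overexpression. mt-Co1 was at 44626, 38985 and 42087 CPM in CT-CTD. In CT-WD it was at 42059, 41852 and 41503 CPM, inside the range of CT-CTD. Its log2 fold change was -0.0033, and 0.0002 by DESeq2. Without CT-CTD 1 it was 0.035, and without CT-CTD 2 it was -0.052. mt-Cytb was at -0.037 (0.060 without CT-CTD 1, -0.096 without CT-CTD 2) and mt-Nd1 at -0.042. mt-Atp6 was at 0.016, and at -0.069 by limma, -0.051 with a replicate block, -0.41 without CT-WD 1 and 0.26 without CT-WD 2. The median log2 fold change of the 13 protein genes was -0.0033, and 0.0002 by DESeq2 and 0.0015 with TMM factors computed without mitochondrial genes, 0.027 without CT-WD 3 and -0.088 without CT-WD 1, beside 0.0071 over all genes tested. Of the 13, 6 were positive and 7 negative, from -1.08 for mt-Nd4l to 1.36 for mt-Nd3. Without CT-CTD 3 mt-Nd4l was at 0.16, and without CT-WD 3 at -1.96. Without CT-WD 1 mt-Nd3 was at -0.089. By complex the median was -0.038 for complex I (0.027 without CT-WD 3, -0.089 without CT-WD 1), 0.13 for complex IV (-0.0038 without CT-WD 2, 0.33 without CT-CTD 2) and 0.053 for complex V (-0.37 without CT-WD 1, 0.85 without CT-CTD 3).

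In the same comparison both rRNA genes were positive. mt-Rnr1 was at 667, 591 and 599 CPM in CT-CTD. In CT-WD it was at 663, 925 and 1077 CPM, so CT-WD 1 lay within the range of CT-CTD. The log2 fold change was 0.52 (95% interval 0.11 to 0.94, unadjusted p 0.017, edgeR), and it did not pass the adjustment (adjusted p 0.595). It was 0.36 without CT-WD 3 and 0.69 without CT-WD 1. mt-Rnr2 was at 1018, 1043 and 1381 CPM in CT-CTD and 978, 1565 and 2075 CPM in CT-WD, with overlap and a log2 fold change of 0.42. Without CT-WD 3 it was 0.15, and without CT-WD 1 it was 0.67. The median of the 14 tRNA genes was -0.069, and 0.0025 by limma, 0.105 without CT-WD 1 and -0.18 without CT-WD 2.

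Diet within endothelial c-Myc overexpression was the question of OE-WD against OE-CTD. mt-Co1 was at 47302, 41190, 42688 and 70774 CPM in OE-CTD. In OE-WD it was at 45793, 42076, 40052 and 66795 CPM, and the groups overlapped. Its log2 fold change was -0.053, but 0.15 without OE-CTD 4, -0.24 without OE-WD 4 and -0.035 without both. Leaving out OE-CTD 4 also turned mt-Nd1 from -0.056 to 0.13, mt-Cytb from -0.056 to 0.058, mt-Atp6 from -0.24 to 0.083 and mt-Rnr1 from -0.073 to 0.098. Leaving out OE-WD 4 turned mt-Rnr2 from 0.24 to -0.037 and mt-Co2 from 0.25 to -0.21, while without OE-CTD 4 they were at 0.54 each. Without OE-WD 4 mt-Nd1 was at -0.23 and mt-Cytb at -0.17. mt-Atp6 was at -0.39 without OE-CTD 3 and mt-Rnr1 at -0.15 without OE-WD 1. Without both, mt-Nd1 was at -0.043, mt-Cytb at -0.059, mt-Atp6 at -0.0056, mt-Rnr1 at 0.025, mt-Rnr2 at 0.27 and mt-Co2 at 0.087. The 13 protein genes had a median of -0.056 (0.11 without OE-CTD 4, -0.24 without OE-WD 4, -0.043 without both), 3 positive and 10 negative, from -0.90 for mt-Nd3 (-0.26 without both, -1.65 without OE-WD 1) to 0.25 for mt-Co2, beside 0.0048 over all genes. By complex the median was -0.056 for complex I, -0.024 for complex IV and -0.25 for complex V. Without OE-CTD 4 these were 0.11, 0.27 and 0.044, without OE-WD 4 -0.23, -0.24 and -0.87, and without both libraries -0.043, -0.035 and -0.57. The tRNA genes had a median of 0.34, with 12 of 14 positive, and of 0.0083 without OE-WD 4, 0.64 without OE-CTD 4 and 0.32 without both.

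OE-WD against CT-WD asks what endothelial c-Myc overexpression does under western diet. In it 12 of 13 protein genes were positive, with a median log2 fold change of 0.22 beside 0.0056 over all genes tested. Without OE-CTD 4 and OE-WD 4 the median was 0.026, with 9 of 13 positive. For the 5 protein genes without a near-identical copy the median was 0.15. Without OE-WD 4, mt-Nd1 of this set was at -0.051, mt-Cytb at 0.032 and mt-Nd5 at 0.32. mt-Co1 was at 0.22 (0.026 without both libraries), mt-Cytb at 0.15 (0.029 without both libraries) and mt-Nd1 at 0.12 (-0.054 without both libraries, -0.059 with a replicate block). mt-Atp6 was at 0.12 (0.028 without both libraries, -0.016 with a replicate block, -0.13 without CT-WD 2, 0.54 without CT-WD 1). By complex the median was 0.29 for complex I (0.14 without both libraries, 0.10 without CT-WD 3), 0.22 for complex IV (-0.11 without both libraries) and 0.21 for complex V (-0.065 by limma, -0.41 without both libraries, 0.63 without CT-WD 1).

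mt-Nd5 of complex I was at 9285, 7491 and 7213 CPM in CT-WD. In OE-WD it was at 10587, 9954, 9344 and 12367 CPM, and the groups did not overlap. The log2 fold change was 0.40 (95% interval 0.089 to 0.71, unadjusted p 0.0152, adjusted p 0.186, edgeR), so it did not pass. Without CT-WD 1 it was 0.52 and passed (adjusted p 0.0483), and without both libraries 4 it was 0.31. Over the other alternatives the adjusted p was 0.0543 to 0.531. mt-Nd5 takes part in proton pumping at the far end of the membrane arm.

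mt-Co3, a core subunit of cytochrome c oxidase, was at 1267, 526 and 373 CPM in CT-WD. In OE-WD it was at 154, 264, 287 and 632 CPM, and the groups overlapped. Its log2 fold change was -1.11 (95% interval -2.09 to -0.14, unadjusted p 0.0282, adjusted p 0.238, edgeR), the lowest of the 13. Without CT-WD 1 it was -0.43, and without OE-WD 4 it was -1.62. With no filter on low counts it passed (adjusted p 0.0256). The highest was mt-Nd4l at 1.24 (unadjusted p 0.102), which was 0.60 without both libraries 4, 0.61 without OE-WD 4 and 2.12 without CT-WD 3.

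In OE-WD against CT-WD both rRNA genes were negative under every scaling. mt-Rnr1 was at 679, 473, 512 and 674 CPM in OE-WD, beside the 663, 925 and 1077 CPM of CT-WD, and the groups overlapped. Group means were 584 CPM ± 108 (SD, n = 4) and 888 CPM ± 209 (SD, n = 3). The log2 fold change was -0.60 (95% interval -0.99 to -0.22, unadjusted p 0.00431, adjusted p 0.118, edgeR). By DESeq2 the adjusted p was 0.0367, and without CT-WD 1 the fold change was -0.78 with an adjusted p of 0.0152. Without both libraries 4 it was -0.68. The adjusted p over all alternatives was 0.0107, with no filter on low counts, to 0.458, without CT-WD 3. mt-Rnr2 was at -0.16 (0.12 without CT-WD 3, -0.44 without both libraries 4), with 1315, 1180, 929.5 and 2092 CPM in OE-WD.

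All 14 tested tRNA genes were positive in OE-WD against CT-WD, with a median of 0.61. Without both libraries 4, 13 of 14 were positive and the median was 0.28. mt-Te, a minus-strand tRNA gene beside mt-Nd6, was at 36.2, 51.5 and 32.0 CPM in CT-WD and at 67.2, 53.7, 43.0 and 81.6 CPM in OE-WD, with overlap. Its log2 fold change was 0.62 (95% interval 0.16 to 1.09, unadjusted p 0.0118, adjusted p 0.17, edgeR), and 0.45 without both libraries. With no filter on low counts mt-Te passed (adjusted p 0.0234). mt-Tl2 was at 4.09, 8.50 and 4.85 CPM in CT-WD and at 11.6, 16.6, 12.4 and 36.0 CPM in OE-WD, without overlap. The fold change on the log2 scale was 1.73 (95% interval 0.0082 to 3.45, unadjusted p 0.049, adjusted p 0.295, edgeR), and 1.23 without both libraries. Over the whole set the tRNA genes with most counts were mt-Tp (32750), mt-Tc (22030) and mt-Te (17205), all on the minus strand.

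OE-CTD against CT-CTD asks for the effect of endothelial c-Myc overexpression on the control diet. Here too 12 of 13 protein genes were positive, and the median log2 fold change was 0.26 beside -0.0007 over all genes tested. Without OE-CTD 4 and OE-WD 4 the median was 0.060, with 9 of 13 positive. mt-Co1 was at 0.27 (0.060), mt-Cytb at 0.17 (0.054), mt-Nd1 at 0.14 (-0.049) and mt-Atp6 at 0.38 (0.052), with the values without both libraries in parentheses. Without CT-CTD 1 mt-Cytb was at 0.27. By complex the median was 0.26 for complex I (0.15 without both libraries), 0.23 for complex IV (-0.062 without both) and 0.52 for complex V (0.22 without both, 1.31 without CT-CTD 3). The lowest of the 13 was mt-Co3 at -0.33, and at 0.050 without CT-CTD 1 and -0.63 without both libraries.

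mt-Nd3 was at 6.56, 4.10 and 5.04 CPM in CT-CTD. In OE-CTD it was at 62.4, 3.10, 2.97 and 67.4 CPM, so a pair of libraries lay below every control library and a pair far above. The fitted log2 fold change was 2.69 (95% interval 0.45 to 4.92, unadjusted p 0.0215, adjusted p 0.214, edgeR). With the counts of its chromosome 1 copy added it was 0.76, and without both libraries 4 it was 2.12. With no filter on low counts it was 2.68 and passed (adjusted p 0.00851). mt-Ty was at 14.2, 13.1 and 15.0 CPM in CT-CTD and at 18.1, 20.0, 15.96 and 41.8 CPM in OE-CTD, without overlap. Its log2 fold change was 0.76 (95% interval 0.080 to 1.44, unadjusted p 0.0308, adjusted p 0.251, edgeR), and 0.36 without OE-CTD 4. mt-Ty too passed with no filter (adjusted p 0.0445). mt-Tl2, at 9.29, 6.78 and 20.0 CPM in CT-CTD and 2.42, 3.93, 2.97 and 36.7 CPM in OE-CTD, was at -0.098. Without OE-CTD 4 mt-Tl2 was at -1.95 with an adjusted p of 0.0452, the 1 mitochondrial gene to pass there. The share of all genes called without OE-CTD 4 is not given here.

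In this comparison the tRNA genes had a median of 0.18, and -0.054 without both libraries 4 and 0.35 without CT-CTD 3. mt-Rnr1 was at -0.0095, and at 0.048 without OE-CTD 2 and -0.18 without both libraries. mt-Rnr2 was at 1018, 1043 and 1381 CPM in CT-CTD and at 942, 977, 931 and 1837 CPM in OE-CTD, with a log2 fold change of 0.030. It was -0.018 by limma, -0.27 without OE-CTD 4 and 0.18 without CT-CTD 3. The median of both rRNA genes was 0.010, and -0.23 without both libraries and 0.083 without OE-CTD 3.

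Whether the diet effect differed between genotypes is the question of the interaction. The median of the 13 protein genes was -0.049 (0.095 without OE-CTD 4, -0.24 without OE-WD 4, -0.035 without both libraries 4), with 4 positive and 9 negative, beside -0.0057 over all genes, from -2.26 for mt-Nd3 (0.19 with its chromosome 1 copy added, -0.81 without CT-WD 1, -1.62 without both libraries) to 1.08 for mt-Nd4l (-0.16 without CT-CTD 3, 1.97 without CT-WD 3, 1.12 without both libraries). mt-Rnr1 was at -0.59 (95% interval -1.14 to -0.047, unadjusted p 0.0352, adjusted p 0.834, edgeR), and -0.50 without both libraries. The median was -0.015 for complex I (0.029 with summed counts as library size), -0.049 for complex IV and -0.30 for complex V. Without both libraries these were -0.0053, -0.045 and -0.63, and without OE-CTD 4 complex I was at 0.14 and complex IV at 0.16. Without OE-WD 4 they were at -0.19 and -0.34. Complex V was at 0.12 without CT-WD 1 and at -1.10 without CT-CTD 3. For the tRNA genes the median was 0.33, with 11 of 14 positive, and 0.021 without OE-WD 4, 0.64 without OE-CTD 4 and 0.20 without both.

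**Figure D3:**
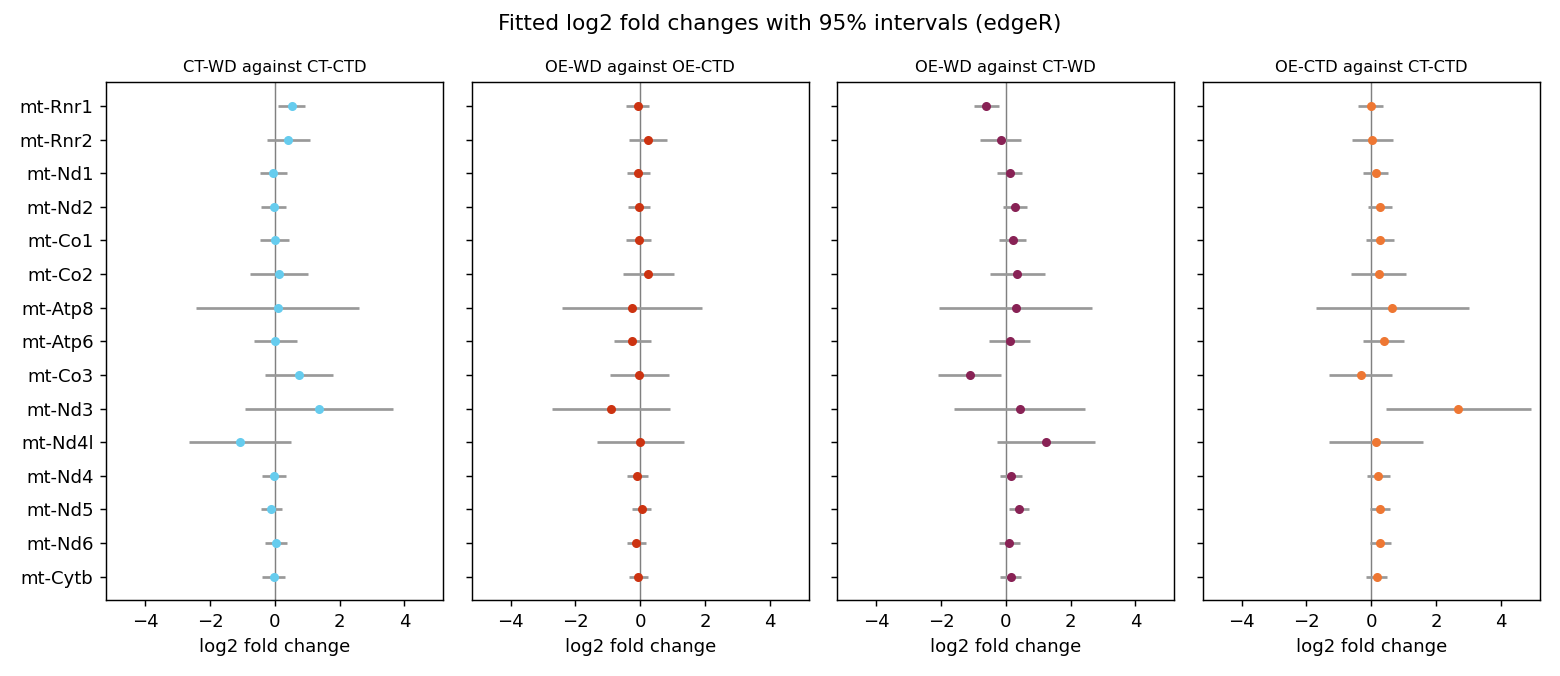
Log2 fold changes of the 13 mitochondrial protein genes and both rRNA genes in the 4 pairwise comparisons, with 95% intervals from edgeR. 0 of these genes passed the adjusted threshold in each comparison, and the lowest adjusted p was 0.118 for mt-Rnr1 in OE-WD against CT-WD.

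The nuclear-encoded subunits of the same complexes, which are assembled with the mitochondrial ones, were set beside them. In CT-WD against CT-CTD 36 of 38 complex I genes were positive (median 0.12), as were 9 of 9 of complex III (median 0.13), 14 of 14 of complex IV (median 0.13) and 15 of 15 of complex V (median 0.13). In OE-WD against CT-WD 35 of 38 complex I genes were negative (median -0.22), as were 9 of 9 of complex III (median -0.21), 14 of 14 of complex IV (median -0.24) and 15 of 15 of complex V (median -0.20). Of the mitochondrial genes of these complexes 12 of 13 were positive there, and 9 of 13 without both libraries 4. In OE-WD against OE-CTD the medians were -0.16, -0.17, -0.19 and -0.17 for complexes I, III, IV and V. In OE-CTD against CT-CTD they were 0.089 (0.043 without OE-CTD 1), 0.11 (0.039 without CT-CTD 1, 0.16 without CT-CTD 3), 0.078 (0.041 without OE-CTD 1) and 0.095 (0.040 without CT-CTD 1). For the interaction they were -0.29, -0.31, -0.32 and -0.30. None of these medians changed sign under DESeq2, the other scalings, limma, without both libraries 4 or with any 1 library left out. The complex I median in OE-WD against CT-WD was -0.30 without CT-WD 1 and -0.16 without CT-WD 3, and in CT-WD against CT-CTD it was 0.20 and 0.060. In the latter comparison complex III was at 0.23 and 0.077 and complex IV at 0.20 and 0.059 without the same libraries, and complex V at 0.23 without CT-WD 1 and 0.063 without CT-CTD 1. Complex II, which has no mitochondrial gene, had medians of 0.10 (0.051 without CT-CTD 1), -0.13 (-0.076 without OE-WD 4), -0.15, 0.13 (0.067 without CT-CTD 1) and -0.19 over the 5 comparisons, in the order in which they were introduced.

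Markers of other tissues, such as tendon and fibroblasts, had medians away from 0 in the same comparisons. In the tendon and fibroblast list 0 genes were called. The part of such markers in the medians of the nuclear subunits was not tested. Summed CPM of nuclear complex I was 6177, 7130 and 7470 in CT-WD 1, 2 and 3, beside 1113, 314.9 and 315 CPM of tendon and fibroblast markers. For OE-WD the complex I sums were 6118, 5997, 6013 and 5913 CPM, beside 879, 1889, 1177 and 754 CPM of those markers. In CT-CTD complex I summed to 5908, 6492 and 6656 CPM, and in OE-CTD to 7160, 6514, 6337 and 6595 CPM. The tendon and fibroblast median was 1.18 in OE-WD against CT-WD, and 2.19 without CT-WD 1.

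Of the nuclear subunit genes tested, 1 of 15 of complex V, 0 of 38 of complex I, 0 of 9 of complex III, 0 of 14 of complex IV and 0 of 4 of complex II passed in OE-WD against CT-WD, beside 0.725% of all genes. In the other 4 comparisons 0 passed, beside 0 to 2.67% of all genes. Atp5l, subunit g of ATP synthase, was at 185, 218 and 253 CPM in CT-WD and 166, 145, 154 and 135 CPM in OE-WD, without overlap. It fell by 0.54 on the log2 scale in OE-WD against CT-WD (95% interval -0.77 to -0.31, adjusted p 0.0325, edgeR), lower in 4 of 4 libraries. The adjusted p of Atp5l was 0.121 with summed counts as library size, 0.164 in a model of the 2 groups only and 0.084 without both libraries 4, over a range of 0.000556 to 0.182 across the alternatives. It was 0.111 without CT-WD 2, 0.182 without CT-WD 3, 0.115 without OE-WD 2, 0.0892 without OE-WD 3 and 0.0883 without OE-WD 4.

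Other nuclear subunit genes with small p did not pass in OE-WD against CT-WD. Ndufs7 of complex I was at -0.37 (adjusted p 0.0764), Cox7a2 of complex IV at -0.31 (adjusted p 0.0914) and Uqcr10 of complex III at -0.34 (adjusted p 0.144). Without CT-WD 1 these passed, with Ndufs7 at -0.47 (adjusted p 0.00575), Cox7a2 at -0.40 (adjusted p 0.00934) and Uqcr10 at -0.48 (adjusted p 0.00917). The share of all genes called without CT-WD 1 is not given here, so these calls stand without a background. In the interaction 16 of 38 complex I genes and 9 of 14 complex IV genes had an unadjusted p below 0.05, beside 5.92% of all genes, and 0 passed the adjustment. Cox7a1, the muscle form of a complex IV subunit, was at -0.48 (unadjusted p 0.00272, adjusted p 0.825) and Uqcrq of complex III at -0.41 (unadjusted p 0.00623, adjusted p 0.825).

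**Figure D4:**
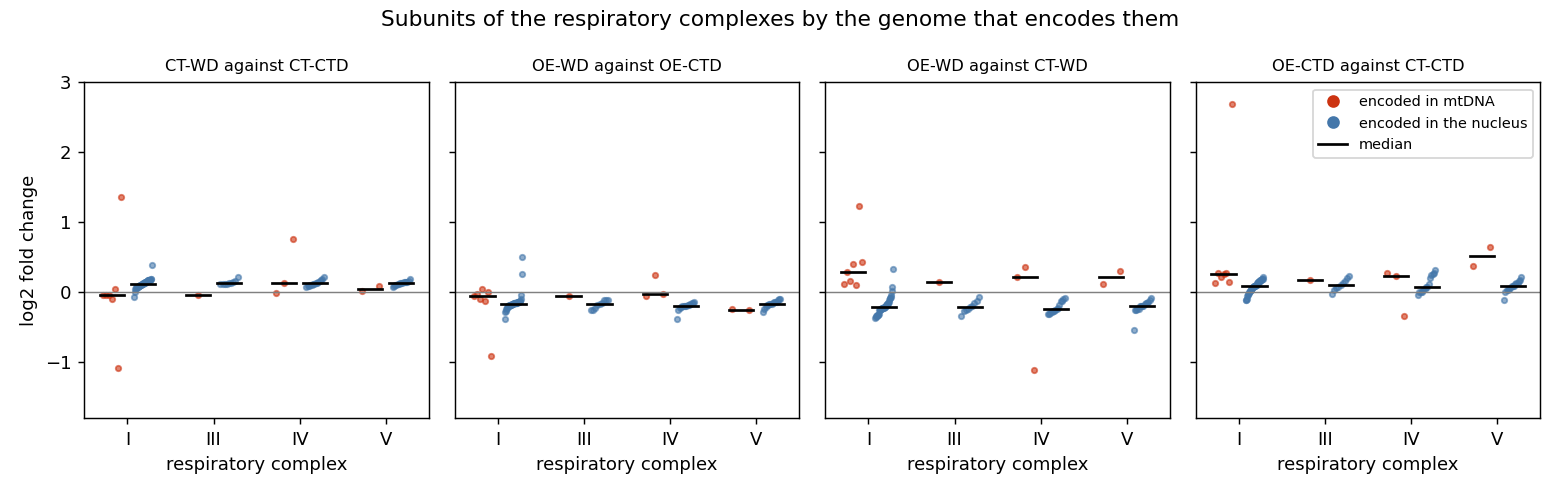
Log2 fold changes of mitochondrially and nuclear-encoded subunits of each respiratory complex, a point per gene and a line at each median, with a panel per pairwise comparison. In OE-WD against CT-WD the complex I medians are 0.29 for the 7 mitochondrial genes and -0.22 for the 38 nuclear genes.

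Genes that replicate, transcribe and process mitochondrial nucleic acids gave 0 calls in the 5 comparisons. Of all genes tested 0, 0.00647, 0.725, 2.67 and 0% were called, in the order in which the comparisons were introduced. The 10 replication and nucleoid genes had medians of 0.010 (-0.027 with summed counts as library size), 0.010 (-0.0080 without both libraries 4), -0.041, -0.055 and 0.015 (-0.035 without both libraries 4), in the order used before. Among them Tfam, which packages mitochondrial DNA and starts its transcription, was at -0.10 in OE-WD against OE-CTD (unadjusted p 0.207, edgeR). It was at -0.059 without OE-CTD 3 and at -0.15 without OE-CTD 4. The 15 genes of transcription and its regulators had medians of -0.060, -0.097 (-0.0076 without OE-CTD 1) and -0.021 (0.020 with summed counts as library size, 0.050 without both libraries 4) in the first 3 comparisons. They were 0.022 (-0.020 without OE-CTD 1) and -0.12 (0.078 without CT-WD 1) in the others. Ppargc1a, a coactivator of mitochondrial biogenesis, was at 0.97 in CT-WD against CT-CTD (95% interval 0.35 to 1.60, unadjusted p 0.0046, adjusted p 0.507, edgeR). It was at 89.7, 64.2 and 70.8 CPM in CT-CTD and at 162.3, 84.1 and 194.3 CPM in CT-WD, with overlap. Without CT-WD 3 the log2 fold change of Ppargc1a was 0.72, and without CT-WD 2 it was 1.25. The 23 processing, polyadenylation and decay genes in the table had medians of -0.041, -0.037, 0.012, 0.0019 (-0.0009 by DESeq2 and with TMM factors computed without mitochondrial genes, -0.0014 by limma with a pseudocount of 0.1, -0.0052 without both libraries 4) and -0.0011 (0.042 with summed counts as library size, 0.0020 by limma, 0.017 without both libraries 4). Pde12, which removes poly(A) from mitochondrial RNA, was at -0.46 in CT-WD against CT-CTD (unadjusted p 0.00274, adjusted p 0.461) and at 0.38 in OE-WD against CT-WD (unadjusted p 0.0068, adjusted p 0.139), without overlap in either. With 1 library left out, medians over the 5 comparisons lay between -0.099 and 0.059 for replication, -0.18 and 0.078 for transcription and -0.060 and 0.032 for processing.

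The 7 chromosome 1 pseudogenes had medians of -0.14 (-0.37 without CT-CTD 2, -0.013 without CT-CTD 3), 0.17 (-0.18 without OE-WD 4, 0.46 without OE-CTD 4), 0.34, 0.34 (-0.027 without both libraries 4) and 0.50 (0.052 without OE-WD 4), with 0 called. Of all genes tested 0 to 2.67% were called in these comparisons. Gm10222, the copy of mt-Nd4l, was at 1.08 in OE-WD against CT-WD (unadjusted p 0.00195, adjusted p 0.0914), and at 0.62 without OE-WD 4.

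Cell type markers show how the make-up of the tissue samples compared. In bulk RNA fewer cells of a type and less RNA per cell cannot be told apart. Endothelial markers had medians of 0.17 (0.090 without CT-WD 1), 0.078 (0.047 without OE-WD 3), 0.35, 0.30 and -0.063 (-0.017 without CT-WD 1, -0.13 without CT-WD 2) in the same order, none of which changed sign with 1 library left out. Cdh5, VE-cadherin, rose by 0.46 in OE-WD against CT-WD (95% interval 0.27 to 0.66, adjusted p 0.0322, edgeR), with no overlap of the groups. Its adjusted p was 0.128 with summed counts as library size, 0.137 in a model of the 2 groups, and 0.135, 0.142, 0.111, 0.0961 and 0.0683 without CT-WD 2, CT-WD 3, OE-WD 2, OE-WD 3 and OE-WD 4. Tek, the angiopoietin receptor, rose by 0.52 in OE-CTD against CT-CTD (95% interval 0.29 to 0.76, adjusted p 0.0232, edgeR), again with no overlap. For Tek the adjusted p was 0.0516 with summed counts as library size, and 0.111, 0.0941, 0.0563, 0.0683 and 0.0529 without CT-CTD 2, CT-CTD 3, OE-CTD 1, OE-CTD 2 and OE-CTD 3. Myod1, a regulator of muscle identity, fell by 0.69 in OE-CTD against CT-CTD (95% interval -1.03 to -0.35, adjusted p 0.0346, edgeR), also with no overlap. For Myod1 the adjusted p was 0.0506 with summed counts as library size, 0.0742 by limma and 0.0621 without both libraries 4. It was 0.19, 0.133, 0.0656, 0.106, 0.0748 and 0.0573 without CT-CTD 2, CT-CTD 3, OE-CTD 1, OE-CTD 2, OE-CTD 3 and OE-CTD 4. The 6 skeletal muscle markers as a whole had medians of 0.081 (0.0063 without CT-WD 2), -0.014 (0.094 without OE-CTD 4, -0.14 without OE-WD 4) and -0.066 (-0.022 without CT-WD 3, -0.19 without OE-WD 4) in the first 3 comparisons. They were 0.0052 (-0.0044 with summed counts as library size, -0.0031 by limma, -0.10 without OE-CTD 4, 0.047 without OE-CTD 3, -0.11 without both libraries 4) and -0.073 (0.049 without OE-CTD 4, -0.19 without OE-WD 4) in the others.

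In the other marker lists 0 genes were called, beside 0 to 2.67% of all genes. Each list below had a median that changed sign in some comparison when 1 library was left out, and medians that moved far without a library stand in parentheses. Slow and oxidative fibre markers had medians of 0.10 (0.0030 without CT-CTD 2, 0.23 without CT-CTD 3), -0.15, -0.026 (0.020 with summed counts as library size, 0.062 without CT-WD 3, -0.13 without CT-WD 1), 0.27 and -0.26 (-0.10 without CT-WD 3). For fast fibre markers they were 0.084 (-0.0026 without CT-WD 2, 0.185 without CT-WD 1), 0.010 (-0.068 without OE-WD 4, 0.084 without OE-CTD 4) and -0.091 (-0.0030 without CT-WD 2, -0.20 without OE-WD 4) in the first 3 comparisons. In OE-CTD against CT-CTD the fast fibre median was 0.014 (-0.053 without OE-CTD 4, 0.039 without CT-CTD 2, -0.055 without both libraries 4). In the interaction it was -0.078 (0.077 without OE-CTD 4, -0.17 without OE-WD 4).

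Adipocyte markers had a median of -0.87 in CT-WD against CT-CTD (-1.97 without CT-WD 1, -0.19 without CT-CTD 1) and of -0.079 in OE-WD against OE-CTD (0.16 without OE-CTD 3, -0.25 without OE-CTD 4). The others were 0.61 (0.33 without CT-WD 3, 1.72 without CT-WD 1), -0.26 (0.37 without CT-CTD 1, -0.56 without CT-CTD 3) and 0.76 (0.085 without CT-CTD 1, 1.91 without CT-WD 1). Macrophage markers had medians of 0.52 (-0.0097 without CT-WD 1, 0.90 without CT-CTD 1), -0.018 (0.22 without OE-CTD 3, -0.26 without OE-WD 2) and 0.19 (-0.080 without CT-WD 2, 0.79 without CT-WD 1). Their last medians were 0.84 and -0.54 (0.18 without CT-WD 1, -0.94 without CT-CTD 1). Of the 6 macrophage markers 5 had an unadjusted p below 0.05 (edgeR) in OE-CTD against CT-CTD, beside 15.9% of all genes. In the other comparisons 0 did.

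For red blood cells the medians were 0.10 (-0.029 without CT-CTD 1, 0.38 without CT-CTD 2), 0.13 (-0.18 without OE-WD 2, 0.46 without OE-CTD 4) and -0.087 (0.078 without OE-WD 3, -0.40 without OE-WD 2). They were -0.033 (0.16 without CT-CTD 2, -0.33 without OE-CTD 4) in OE-CTD against CT-CTD and 0.019 (-0.26 without OE-WD 2, 0.37 without OE-CTD 4) in the interaction. For Schwann cells they were -0.12 (0.018 by limma with a pseudocount of 0.1, 0.27 without CT-CTD 1, -0.43 without CT-CTD 2), -0.15 (0.018 without OE-WD 4, -0.375 without OE-CTD 4) and 0.15 (-0.071 without OE-WD 3, 0.31 without OE-WD 4). The Schwann medians of the other 2 comparisons were 0.18 (-0.13 without CT-CTD 2, 0.57 without CT-CTD 1) and -0.022 (0.021 with summed counts as library size, 0.28 without CT-CTD 2, -0.38 without CT-CTD 1).

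Tendon and fibroblast markers summed to 521, 326 and 355 CPM in CT-CTD and to 1113, 314.9 and 315 CPM in CT-WD. In OE-CTD the sums were 977, 1275, 1092 and 698 CPM, and in OE-WD 879, 1889, 1177 and 754 CPM. Their medians were 0.58 (-0.48 without CT-WD 1, 0.95 without CT-WD 2), 0.16 (-0.10 without OE-WD 2, 0.33 without OE-WD 4), 1.18 (2.19 without CT-WD 1), 1.41 and -0.42 (0.73 without CT-WD 1, -0.80 without CT-WD 2). Epidermis markers, at low levels, had medians of 0.95 (-1.045 without CT-WD 1, 2.47 without CT-CTD 1), 1.34 (0.82 without OE-WD 3) and 0.86 (0.42 without OE-WD 3, 3.33 without CT-WD 1). For the other 2 comparisons they were 0.62 (2.01 without CT-CTD 1) and 0.25 (-0.99 without CT-CTD 1, 2.795 without CT-WD 1).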

How the data were processed

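RNA-seq of skeletal muscle was available for 14 libraries in 4 groups of male FVB/N mice. The deposited count table gives raw counts per Ensembl gene, and the deposited FPKM table gives fragments per 1000 bases of gene length, scaled to a library total set by the authors. That total, worked out from the deposited FPKM, counts and lengths, was 79.9 to 98% of a library's summed counts. Gene length in bases is a further column of the deposited count table (unit: other). The submitters' processing notes name HISAT2 2.0.5, featureCounts 1.5.0-p3 and the build mm10. The strand setting and the handling of reads that align to several places are not given.

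Members are all genes with chromosome MT in the count table. The members and the lists of nuclear genes and markers were chosen with earlier results of these data known. Counts were fitted with edgeR 4.0.16 in R 4.3.3 (filterByExpr, TMM, quasi-likelihood F test, a mean per group, no block), which tested 15458 of 54532 genes with a biological coefficient of variation of 17%. A gene was called at a Benjamini-Hochberg adjusted p below 0.05 over all genes tested in the comparison, with no limit on the fold change. CPM are counts scaled to library size times TMM factor, and log2 CPM used a prior count of 2. Sums, shares and medians over members carry no p. Shares have 95% Wilson intervals from scipy 1.17.1. The code was checked on simulated data. Tables were handled in Python 3.11.15 with pandas 2.3.3 and drawn with matplotlib 3.10.9.

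Nuclear copies were found with blastn 2.17.0 by aligning mitochondrial transcripts of GENCODE M21 with all its other transcripts (identity of 99% or more over at least 30 bases, e-value limit 1e-10). Pairing was checked by correlating, within each replicate number, the deviations of log2 CPM from the group means. The correlations were 0.385, 0.123 and 0.203 for CT-WD and CT-CTD, all above 0.1, 0.0711 to 0.338 for OE-WD and OE-CTD, -0.23 to -0.0647 for OE-WD and CT-WD and -0.122 to 0.0465 for OE-CTD and CT-CTD. A replicate block was among the alternatives. The labels name no pairs.

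Named genes followed a rule written together with the lists: all 13 protein genes, both rRNA genes, the 3 tRNA genes with most counts and, of each pathway list, the called genes or else the 2 with the smallest p, of which examples are given. In pairwise comparisons folds are given for mt-Nd1, mt-Cytb, mt-Co1, mt-Atp6, both rRNA genes, members with an unadjusted p below 0.05, the lowest and highest of the 13 protein genes and members called under an alternative. For the interaction they are given for members below 0.05 and for the lowest and highest. This choice of folds was made after the values were seen.

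The lists were nuclear subunits of complexes I to V, mitochondrial DNA replication, transcription with its regulators, RNA processing, the chromosome 1 pseudogenes, and markers of slow fibre, fast fibre, skeletal muscle, endothelium, adipocytes, macrophages, red blood cells, Schwann cells, tendon and fibroblasts, and epidermis. Ndufa4 is in the lists of complexes I and IV, and Mb in those of slow fibre and skeletal muscle. Hba-a2 and Ucp1 did not pass the filter. Of both Ensembl entries named Atp5o, ENSMUSG00000116933 is at 0 in every library and the other was tested. The names Fastkd4, Prorp and Atp5pb are not in the table, and the lists also hold the names Tbrg4, 1110008L16Rik and Atp5f1.

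Alternatives were DESeq2 1.42.0, TMM factors without mitochondrial genes, summed counts as library size, no filter, limma 3.58.1 on log2 FPKM with pseudocounts of 1 and 0.1, a model of the 2 groups compared, the replicate block, leaving out each library, and other definitions of the share. Leaving out OE-CTD 4 with OE-WD 4, adding the counts of each chromosome 1 copy to its gene, and medians over genes without a near-identical copy were chosen after seeing the data.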

Additional observations from a re-analysis of the deposited data

Results flagged for a closer look

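In groups of 4 libraries, the highest or lowest library was compared with the others by Dixon's ratio at its 95% critical value, over 70 pairs of a group and a measure. Chance alone picks out about 1 in 20 groups, and 6 pairs were picked out here. OE-CTD 4 lay far above the other OE-CTD libraries in 5 of them. mt-Rnr1 was at 822 CPM in OE-CTD 4, against 537 to 559 in the others. mt-Rnr2 was at 1837 CPM, against 931 to 977. mt-Nd4l was at 250 CPM (249.6), against 59.6 to 87.1. The fast fibre markers summed to 150900 CPM, against 111500 to 115700. The skeletal muscle markers summed to 91820 CPM, against 67200 to 70930. In OE-WD 2 the macrophage markers summed to 96.3 CPM, against 55.9 to 58.3 in the other OE-WD libraries. The measures are not independent, since genes of 1 library share its scaling.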

How the results depend on the processing

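Of 132 gene fold changes followed through the alternatives, 85 kept their sign and their side of the threshold in all of them. No scaling moved the median over all genes by more than 0.1 on the log2 scale. The cause of the changes below was not tested.

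DESeq2 called 1 mitochondrial gene in OE-WD against CT-WD, mt-Rnr1. With no filter on low counts 3 were called in OE-WD against CT-WD (mt-Rnr1, mt-Co3, mt-Te) and 2 in OE-CTD against CT-CTD (mt-Nd3, mt-Ty). Without OE-CTD 4 and OE-WD 4, an alternative chosen after seeing the data, 1 was called in OE-CTD against CT-CTD, mt-Tl2. For these alternatives the share of all genes called is not given here. As a share of summed FPKM, OE-WD against CT-WD differed by 4.13 percentage points. This scale has a larger base, with means of 26.0 and 21.9%, beside 12.2 and 10.5% of counts, which differed by 1.73 points.

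In CT-WD against CT-CTD mt-Co1 turned from -0.0033 to 0.0002 by DESeq2, 0.0015 with TMM factors without mitochondrial genes, 0.0003 by limma with either pseudocount and 0.0002 without both libraries 4. mt-Atp6 turned to -0.069 by limma (-0.0691 with the smaller pseudocount) and -0.051 with the replicate block. With chromosome 1 copies added, mt-Nd3 turned to -0.27 there and to 0.19 in the interaction. In OE-WD against OE-CTD mt-Nd3 turned to 0.015 by limma with the smaller pseudocount, and mt-Rnr1 to 0.025 without both libraries 4. In OE-WD against CT-WD mt-Nd1 turned to -0.059 and mt-Atp6 to -0.016 with the replicate block, and mt-Nd1 to -0.054 without both libraries 4. In OE-CTD against CT-CTD mt-Nd1 turned to -0.047 with the replicate block and -0.049 without both libraries 4. mt-Rnr2 turned there to -0.018 by limma (-0.0185 with the smaller pseudocount), -0.25 with the replicate block and -0.27 without both libraries 4. The replicate block called 0 mitochondrial genes in each comparison.

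Leaving out 1 library at a time, 0 mitochondrial genes were called in both diet comparisons and the interaction. In OE-WD against CT-WD it was 0 to 2 (mt-Nd5 and mt-Rnr1 without CT-WD 1) and in OE-CTD against CT-CTD 0 to 1 (mt-Tl2 without OE-CTD 4). The nuclear genes Ndufs7, Cox7a2 and Uqcr10 also passed without CT-WD 1, and the share of all genes called in these fits is not given here. The median of the 13 protein genes was -0.088 to 0.027 in CT-WD against CT-CTD, -0.24 to 0.11 in OE-WD against OE-CTD, 0.029 to 0.30 in OE-WD against CT-WD, 0.062 to 0.34 in OE-CTD against CT-CTD and -0.24 to 0.095 in the interaction. The share differed by -0.928 to 0.158, -1.12 to 0.422, 0.961 to 2.28 and 0.928 to 2.24 percentage points in the pairwise comparisons in that order.

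Single genes changed sign or call as well. CT-WD against CT-CTD gave -0.096 to 0.060 for mt-Cytb, -0.052 to 0.035 for mt-Co1, -0.41 to 0.26 for mt-Atp6, -1.96 to 0.16 for mt-Nd4l and -0.089 to 1.78 for mt-Nd3. OE-WD against OE-CTD gave -0.23 to 0.13 for mt-Nd1, -0.17 to 0.058 for mt-Cytb, -0.24 to 0.15 for mt-Co1, -0.39 to 0.083 for mt-Atp6, -0.15 to 0.098 for mt-Rnr1, -0.037 to 0.54 for mt-Rnr2 and -0.21 to 0.54 for mt-Co2. OE-WD against CT-WD gave -0.051 to 0.20 for mt-Nd1, -0.13 to 0.54 for mt-Atp6, -0.78 to -0.44 for mt-Rnr1, -0.43 to 0.12 for mt-Rnr2 and 0.32 to 0.52 for mt-Nd5. For nuclear genes it gave 0.22 to 1.05 for Ppargc1b, -0.47 to -0.31 for Ndufs7, -0.41 to -0.24 for Ndufa5, -0.48 to -0.24 for Uqcr10, -0.37 to -0.21 for Uqcrh, -0.40 to -0.23 for Cox7a2, -0.36 to -0.18 for Cox7a1, -0.65 to -0.43 for Atp5l and 0.42 to 0.51 for Cdh5. OE-CTD against CT-CTD gave -0.048 to 0.22 for mt-Nd1, -0.18 to 0.048 for mt-Rnr1, -0.27 to 0.18 for mt-Rnr2, -0.63 to 0.050 for mt-Co3, -1.95 to 0.49 for mt-Tl2, 0.47 to 0.56 for Tek and -0.88 to -0.49 for Myod1. In the interaction mt-Nd4l was at -0.16 to 1.97.

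Groups of 3 and 4 libraries limit what can be told apart: the median 95% interval of the 13 protein genes reached 0.38 to 0.59 on the log2 scale to each side.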
